A study of Mus musculus with 4 samples.

Results

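The nuclei described here are bone marrow progenitors that carry RNA of F13a1, Nrg1, Stxbp6 and Gria3 with RNA of granule proteases and of the monocyte genes Ccr2 and Fn1 below set limits. They were chosen by measured RNA molecules, counted as unique molecular identifiers (UMIs). Nuclei were kept when they had 200 genes or more and between 1000 and 50000 ATAC counts in peaks. A member had summed UMIs of F13a1, Nrg1, Stxbp6 and Gria3 of at least 3, of Mpo, Elane, Ctsg and Prtn3 of at most 7, and of Ccr2 and Fn1 of at most 1. The rule found 1467 members among 13619 kept nuclei. RNA ratios of the members are therefore a description of what the rule selected and of what goes with it, and no test was made on them. Open chromatin of the same nuclei was not used by the rule.

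The samples were lineage-negative, cKit-positive (Lin-cKit+) hematopoietic stem and progenitor cells (HSPCs) from the bone marrow of C57BL/6 mice, 8-week-old males in the methods of the study, either with silk ligatures around the second molars for 14 days (Lig) or without ligature (Ctrl). Each group held 1 sample, with 1 RNA and 1 ATAC library made from the same nuclei, so there were no replicates. The nuclei of both samples stood in 1 matrix under 2 barcode suffixes, here called library 1 and library 2. The labels do not say which suffix came from Lig and which from Ctrl, so the libraries were assigned to neither and were not compared as treatment groups.

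F13a1 encodes the A subunit of coagulation factor XIII, a transglutaminase that cross-links fibrin and that cells of the monocyte lineage make. Nrg1 encodes neuregulin 1, a growth factor ligand of ERBB receptors, Stxbp6 encodes amisyn, which binds SNARE proteins of membrane fusion, and Gria3 encodes a subunit of AMPA-type glutamate receptors. On GRCm38 the markers are F13a1 (ENSMUSG00000039109, chr13:36867178-37050244, minus strand), Nrg1 (ENSMUSG00000062991, chr8:31814551-32884029, minus strand), Stxbp6 (ENSMUSG00000046314, chr12:44852484-45074709, minus strand) and Gria3 (ENSMUSG00000001986, chrX:41400854-41678601, plus strand). In the marrow, progenitors of granulocytes and monocytes are told apart by factors such as IRF8, which favours monocytes and dendritic cells, and by granule proteases such as myeloperoxidase (Mpo) and neutrophil elastase (Elane), which are made early in the neutrophil lineage. PU.1 and IRF8 can bind DNA together at a composite of an ETS and an IRF site, called EICE.

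Members made up 831 of 5905 kept nuclei in library 1 (14.1%, 95% Clopper-Pearson interval 13.2 to 15.0%) and 636 of 7714 in library 2 (8.24%, 7.64 to 8.88%). Intervals of shares and levels cover counting error only, and molecules of 1 library are not replicates. Members were deeper than the other nuclei, with a median of 2106 UMIs against 1558.5 in library 1 and 1823.5 against 1487 in library 2, and a median of 25552 ATAC counts in peaks against 18687 and 21632 against 15861. A minimum of UMIs selects deeper nuclei by construction, and among nuclei with at least 2000 UMIs the share of members was 24.7% in library 1 and 13.9% in library 2. Genes at the ribosomal RNA locus took 44.2% of member UMIs in library 1 and 52.5% in library 2, against 42.8% and 53.2% in the other nuclei. The libraries shared 146 barcodes, of which 72 were kept in both, and 0 were members in both.

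The minimum of 3 marker UMIs cut through a continuous range. Exactly 3 marker UMIs were present in 274 members of library 1 and 331 of library 2, and 454 and 633 nuclei met both caps with 2 marker UMIs. The median member carried 4 marker UMIs in library 1 and 3 in library 2, and the highest carried 19 and 14. The caps left out 161 of 992 nuclei with enough marker UMIs in library 1 and 109 of 745 in library 2, and 137 and 101 of these exceeded the protease cap. Members were not free of proteases: 101 of them in library 1 and 35 in library 2 had no protease UMI, and 118 and 86 had 6 or 7, just inside the cap.

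F13a1 and Gria3 carried the marker sum. In library 1, 81.0% of members had a UMI of F13a1 and 88.0% of Gria3, and in library 2 the shares were 89.2% and 79.2%. Nrg1 was detected in 29.1% and 31.3% of members and Stxbp6 in 11.2% and 6.29%. The most common pattern, F13a1 with Gria3 and neither of the others, held 44.3% of members in library 1 and 47.2% in library 2. All 4 markers were detected together in 22 and 5 members, and a single marker made up the whole sum in 18.9% and 17.1%. The members are thus for the most part nuclei with F13a1 and Gria3 RNA, and the call does not rest on Nrg1 or Stxbp6 in most of them.

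Each of the other markers was detected more often in nuclei that carried F13a1 than in those without it, counted over all kept nuclei, whether or not they met the rule. Each nucleus was thinned to 1000 UMIs to set depth aside, which left out the shallower nuclei (22 members and 1018 others in library 1, 16 and 1129 in library 2). In library 1, Gria3 was detected in 41.6% (38.4 to 44.8%) of nuclei with F13a1 and in 17.9% (16.7 to 19.1%) of nuclei without it, and in library 2 in 24.4% (22.0 to 26.9%) and 13.8% (12.9 to 14.8%). Nrg1 was detected in 12.3% of nuclei with F13a1 against 3.55% without it in library 1, and in 8.82% against 3.75% in library 2. For Stxbp6 the shares were 5.36% against 1.05% and 2.07% against 0.716%. Among pairs without F13a1, intervals in library 2 overlapped for Stxbp6 with and without Nrg1 (0.913 to 4.60% and 0.690 to 1.18%). They also overlapped for Gria3 with and without Stxbp6 (15.0 to 37.4% and 14.9 to 16.7%). For Nrg1 with Gria3, and for all 3 pairs in library 1, they were apart. The markers were chosen as a set with results of these data known, so their joint detection is a description and no support for the set.

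The markers were also counted in nuclei of other lineages, and free RNA was not measured separately. Of nuclei with at least 5 UMIs of pro-B markers (the pro-B list without Bach2, which other cells also express), 11 of 1048 met the rule in library 1 and 4 of 194 in library 2, and of nuclei with at least 5 UMIs of erythroid markers 1 of 42 and 0 of 10. After thinning, F13a1 was detected in 5.72% of the pro-B marker nuclei in library 1 and 6.21% in library 2. The shares of members, 61.9% and 66.6% after thinning and as given above without it, are set by the rule, at median depths of 2106 and 1823.5 UMIs in members and 1645 and 1532.5 in pro-B marker nuclei.

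The levels of the rule's markers are given as UMIs summed over nuclei and divided by the UMIs of all genes, in counts-per-million (CPM) units. F13a1 was at 948 CPM (904 to 994) in members and 133 CPM in other nuclei of library 1, and at 978 CPM (924 to 1034) and 157 CPM in library 2. Gria3 was at 1089 CPM (1042 to 1138) against 168 CPM in library 1 and 776 CPM (728 to 826) against 134 CPM in library 2. Nrg1 was at 184 against 29.9 CPM and 199 against 33.8 CPM, and Stxbp6 at 65.0 against 11.8 CPM and 34.1 against 6.92 CPM. The threshold of 3 UMIs sets these levels, so they describe the selection.

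RNA of the granule proteases was counted in members up to the cap. Mpo was at 834 CPM in members against 890 CPM in other nuclei of library 1, and at 882 against 1292 CPM in library 2. Prtn3, proteinase 3, was at 310 against 318 CPM and 417 against 549 CPM, and Ctsg, cathepsin G, at 97.8 against 97.7 CPM and 120 against 252 CPM. Elane was at 122 against 181 CPM and 155 against 281 CPM. The monocyte chemokine receptor gene Ccr2, which the rule capped, was at 43.2 against 32.8 CPM and 35.7 against 33.3 CPM, and Fn1, fibronectin, at 7.65 against 12.9 CPM and 3.97 against 6.03 CPM. The caps fix the upper end of these values, so they describe the selection, and the share that free RNA gives was not measured.

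F13a1 was also counted in nuclei chosen by other genes, at lower levels than in members. Granule protease nuclei, with at least 8 summed UMIs of the 4 proteases, had F13a1 at 324 CPM (291 to 360) in library 1 and 218 CPM (197 to 241) in library 2. Ccr2/Fn1 nuclei, with at least 2 summed UMIs of Ccr2 and Fn1, had F13a1 at 677 CPM (535 to 847) and 520 CPM (365 to 720), but only 55 and 37 nuclei were of that kind. Stem-marker nuclei, with at least 3 summed UMIs of Mecom, Hlf, Prdm16 and Myct1, had F13a1 at 48.0 CPM (23.0 to 88.2) and 50.8 CPM (6.15 to 184). F13a1 therefore followed the order members, Ccr2/Fn1, granule protease and stem-marker nuclei in both libraries. The high place of the members is set by the rule. Stem-marker nuclei met both caps and were no members, so they had fewer than 3 marker UMIs. The rule thus also limits their F13a1 level.

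**Figure D1:**
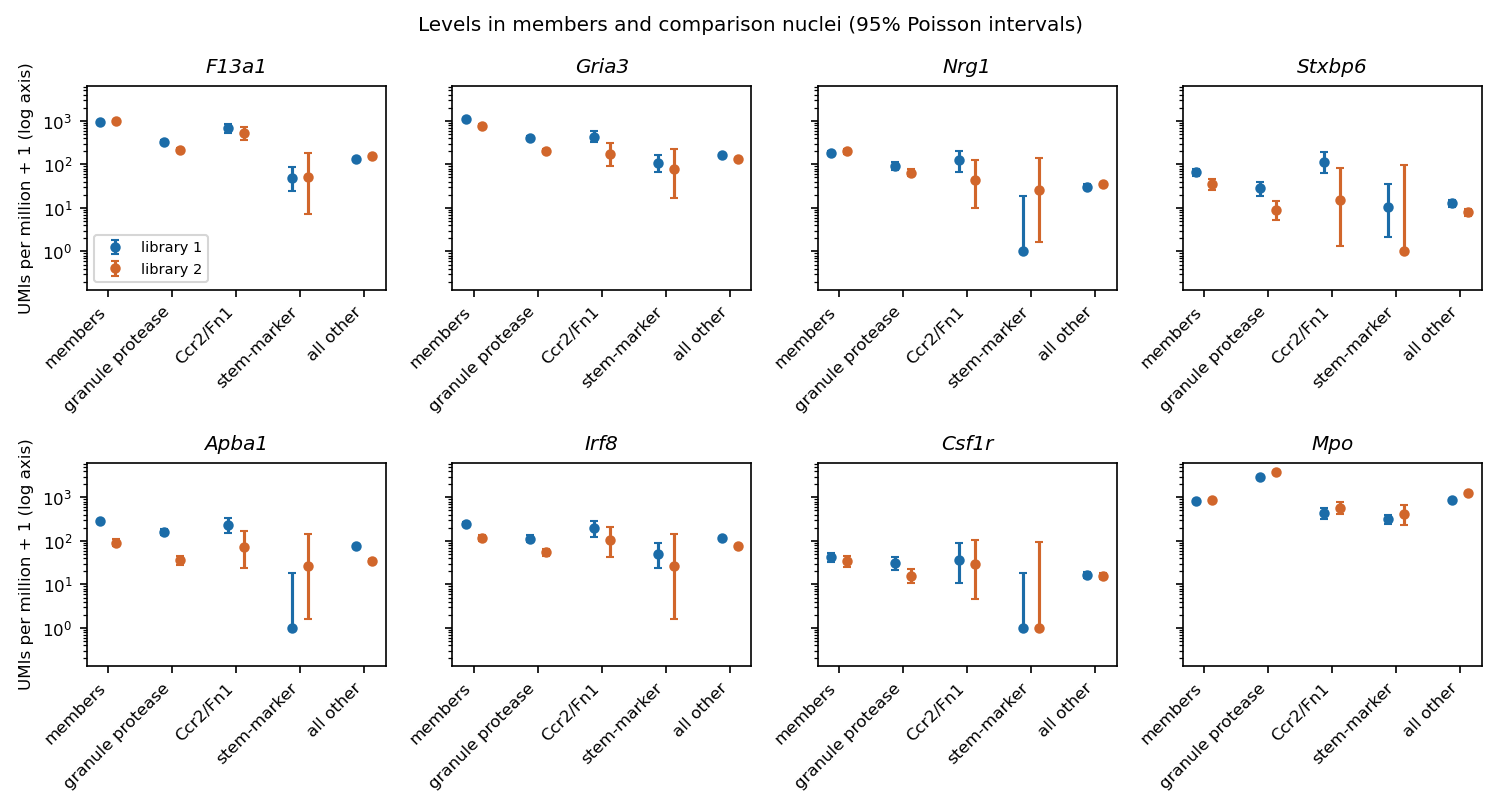
Each panel gives 1 gene, with CPM plus 1 on a log axis for members, for 3 comparison sets and for all other kept nuclei, and points are sums over nuclei of library 1 (blue) and library 2 (orange) with 95% Poisson intervals. The 4 markers of the rule stand high in members by construction, Apba1, Irf8 and Csf1r are also above the other nuclei in both libraries, and Mpo is at 834 and 882 CPM in members.

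Of 8388 genes that reached 50 UMIs per library, 19 were at least 2-fold higher in members than in other nuclei in both libraries (0.227%) and 162 were at least 2-fold lower (1.93%). Ratios are on the log2 scale with a pseudocount of 1 CPM, and their median over all these genes was -0.14 in library 1 and -0.06 in library 2. The rule's own 4 markers are among the 19, which leaves 15 genes that were not selected on. When nuclei with at least 2000 UMIs were compared, 9 genes were 2-fold higher and 29 lower among those that still reached 50 UMIs per library. Without that minimum, 7 of the 15 genes had ratios past 2-fold in both libraries (Apba1, Itga1, Gpr141, Gm15581, Nlrp3, Csf1r and Pkib). The other 8, Met, Cx3cr1, Tnf and Sh2b2 among them, were below 2-fold in a library and above 0 in both. A fold of 1.5, chosen after seeing the data, was met by 104 higher genes (1.24%) and 432 lower genes (5.15%).

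Growth factor and adhesion receptors were among the 15 higher genes. Apba1, which encodes an adaptor protein of neurons that binds the amyloid precursor protein, had the highest mean ratio, with 282 CPM in members against 73.5 CPM in other nuclei of library 1 and 90.4 against 34.0 CPM in library 2 (log2 ratios 1.93 and 1.39). Met, the receptor of hepatocyte growth factor, was at 65.0 against 18.8 CPM and 48.4 against 17.5 CPM (1.74 and 1.42). Itga1, the integrin alpha 1 chain that binds collagen with beta 1, was at 61.2 against 21.5 CPM and 27 against 10.0 CPM (1.47 and 1.34). Levels of Apba1 differed between the libraries by more than their intervals in members, yet its members exceeded the other nuclei in each. Gm15581, an antisense gene whose annotated span ends upstream of Met on chromosome 6, had log2 ratios of 1.53 and 1.20, and the sources used here do not state how strand was used in counting.

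Other genes of the 15 included receptors and inflammatory genes. Csf1r, the receptor of macrophage colony-stimulating factor and a defining gene of the lineage, was at 41.0 CPM in members (75 UMIs) against 15.2 CPM in library 1 and at 33.3 CPM (42 UMIs) against 14.5 CPM in library 2 (log2 ratios 1.37 and 1.14). Cx3cr1, the fractalkine receptor, was at 41.0 against 15.8 CPM and 42.0 against 17.0 CPM (1.32 and 1.26). Nlrp3, the sensor of an inflammasome, was at 50.8 against 18.0 CPM and 34.9 against 16.1 CPM (1.45 and 1.07), and Tnf, the inflammatory cytokine, at 33.3 against 15.6 CPM and 53.1 against 20.3 CPM (1.05 and 1.35). Gpr141, an orphan receptor, was at 128 against 41.7 CPM and 138 against 61.5 CPM (1.59 and 1.15). The remaining genes were Gm15987, Tmem150b, Sh2b2, Arhgef10l, Bbc3 and Pkib, each with 16 to 60 member UMIs per library.

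RNA of 4 of these genes is given here for the Ccr2/Fn1 nuclei that the rule excluded. In the Ccr2/Fn1 nuclei of library 1, Apba1 was at 229 CPM, Csf1r at 35.2 CPM, Gpr141 at 264 CPM and Nlrp3 at 61.6 CPM, from 26, 4, 30 and 7 UMIs. In those of library 2 they were at 72.3, 28.9, 72.3 and 86.7 CPM, from 5, 2, 5 and 6 UMIs. Granule protease nuclei had Apba1 at 157 CPM and Csf1r at 29.9 CPM in library 1, between members and other nuclei. In library 2 they were at 34.5 and 14.7 CPM, close to the 34.0 and 14.5 CPM of all other nuclei. In stem-marker nuclei, Csf1r and Gpr141 had 0 UMIs in both libraries, from 108 and 24 nuclei. There 1 UMI stood for 4.80 CPM in library 1 and 25.4 CPM in library 2, so 0 UMIs do not show absence. Gpr141 in the Ccr2/Fn1 nuclei of library 1 (178 to 377 CPM) lay above its interval in members (112 to 145 CPM), while in library 2 the intervals overlapped (23.5 to 169 and 118 to 160 CPM). For Apba1, Csf1r and Nlrp3 a difference between these nuclei and members was not detectable in library 1 at this depth, since the intervals overlapped, and fewer UMIs were counted in library 2.

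Levels of Apba1 and Met followed the marker count, inside the members and just outside them, and those of Csf1r did so in library 2 but not in library 1. Apba1 was at 168 CPM (141 to 197) in library 1 nuclei with 2 marker UMIs that met the caps, at 245 CPM (205 to 290) in members with 3, at 259 CPM with 4 or 5 and at 341 CPM (296 to 390) with 6 or more. In library 2 the same sequence for Apba1 was 57.8, 83.5, 93.0 and 109 CPM, with overlapping intervals of the first (44.7 to 73.5 CPM) and the last (64.9 to 173 CPM). Met had the same order, with 33.7, 52.6, 59.1 and 82.4 CPM in library 1 and 35.0, 43.3, 50.7 and 60.8 CPM in library 2, from 40, 27, 24 and 10 UMIs, where the intervals of the first (25 to 47.7 CPM) and the last (29.2 to 112 CPM) overlapped. Csf1r was at 29.1, 45.3, 39.4 and 38.8 CPM in library 1 and at 15.8, 19.3, 46.5 and 48.7 CPM in library 2, from 8 to 26 UMIs each. Nuclei with 6 or more marker UMIs were also deeper, with medians of 2295 and 2308 UMIs against 1893 and 1722 in members with 3, and the part of depth in this order was not tested.

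**Figure D2:**
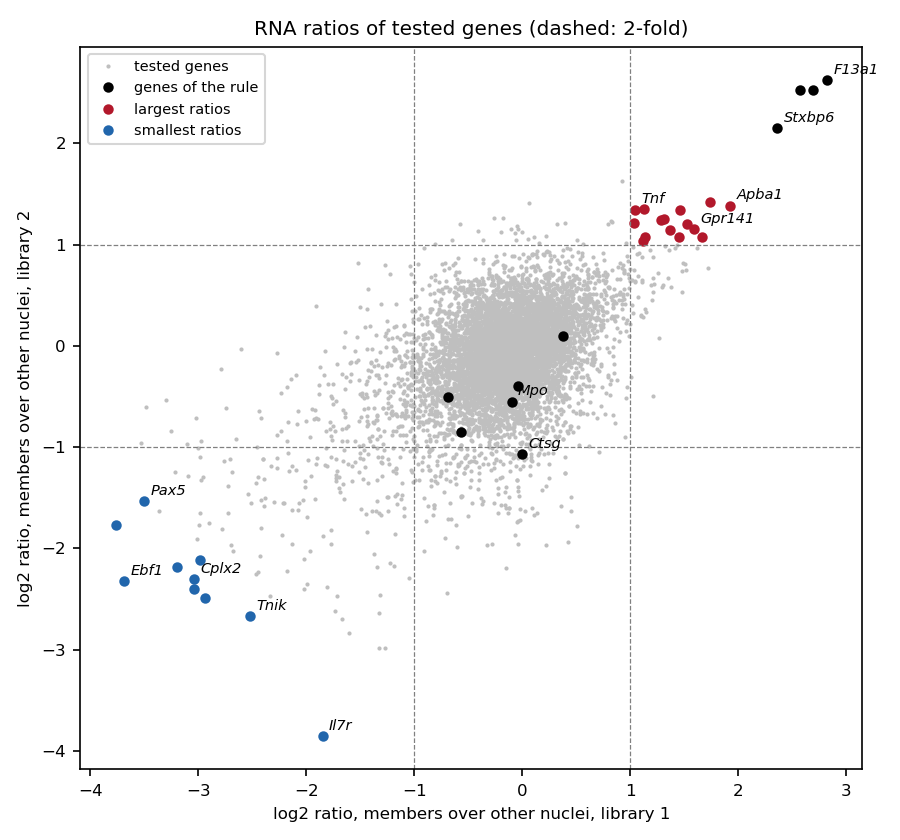
Each point is 1 of 8388 tested genes, placed by its log2 ratio of CPM (pseudocount 1) in members over other kept nuclei of library 1 (x) and library 2 (y), with dashed lines at 2-fold. Genes of the rule are black, the 15 further genes past the upper line in both libraries are red, and the 10 lowest by mean ratio, all in the lower left, are blue, with Il7r lowest in library 2.

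The 10 lowest genes included regulators and receptors of the B lineage. Ebf1, the factor that commits cells to the B lineage, was at 89.6 CPM in members against 1165 CPM in other nuclei of library 1 and at 30.9 against 159 CPM in library 2 (log2 ratios -3.69 and -2.33). Pax5, which maintains B identity, was at 9.29 against 115 CPM and 3.97 against 13.4 CPM, and Blnk, an adaptor of the pre-B receptor, at 21.8 against 187 CPM and 5.55 against 33.6 CPM. Il7r, the interleukin 7 receptor, had 21 member UMIs in library 1 (11.5 against 43.8 CPM) and 0 in library 2, where it was at least 5.66-fold lower when members are set at a floor of 3 UMIs in all. Cecr2, Arpp21, Cplx2, Tnik and Csgalnact1 were also among them.

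Marker lists gave the label of myeloid progenitors a mixed check. Of 18 tested genes of the monocyte list, 13 were above 0 in both libraries, against 20.7% of all tested genes (1738 of 8388), and the list's median log2 ratio was 0.60 in library 1 and 0.46 in library 2. Beside Csf1r and Cx3cr1, 4 of its genes passed the 1.5-fold threshold in both libraries, Irf8 (1.04 and 0.64), Tgfbi (0.77 and 0.62), Ms4a6c (1.0 and 0.64) and Mpeg1 (0.75 and 0.65). Ly86, which pairs with an innate receptor, was at 115 against 43.5 CPM in library 1 and 61.9 against 41.0 CPM in library 2. Not every gene of the list was higher, and lysozyme (Lyz2) was at 35.0 against 40.9 CPM and 27 against 39.0 CPM. Restricted to nuclei with at least 2000 UMIs on both sides, an alternative added after seeing the data, the medians of the list were 0.73 and 0.46, and 3 of the 6 genes stayed 1.5-fold higher in both libraries (Irf8, Cx3cr1 and Csf1r). Tgfbi then had log2 ratios of 0.31 and 0.04 and Ms4a6c of 1.1 and -0.18.

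A broader list of myeloid progenitor genes did not stand above the background. Its 15 tested genes had median log2 ratios of 0.08 and -0.22, 1 of them was 1.5-fold higher (Il6ra) and 1 was 1.5-fold lower (Prss57, a serine protease of granules), against 1.24% higher and 5.15% lower of all tested genes. Spi1, the gene of PU.1, was at 29.5 against 27.3 CPM and 23.0 against 23.8 CPM, and the neutrophil primary granule list had medians of 0.01 and -0.30 with 0 of 5 tested genes past 1.5-fold. The summed level of the monocyte list was 1113 CPM in members, 785 CPM in granule protease nuclei and 2243 CPM in Ccr2/Fn1 nuclei of library 1, and 799, 720 and 1388 CPM in library 2, so it was not highest in members. Csf1r and Irf8 are in that list, and Ccr2/Fn1 nuclei were chosen by monocyte genes.

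Receptors of cytokines went in both directions. Il6ra and Il6st, which together form the receptor of interleukin 6, were at 83.6 against 35.9 CPM and 79.7 against 29.2 CPM in library 1, and at 42.0 against 27.4 CPM and 42.8 against 21.5 CPM in library 2. With Csf1r they were the 3 of 18 tested receptors 1.5-fold higher in both libraries (1.24% of all tested genes), beside 2 that were lower, Kit and Il7r (5.15% of all). Among nuclei with at least 2000 UMIs, Csf1r alone stayed 1.5-fold higher and Il7r alone stayed 1.5-fold lower. Csf2ra and Csf2rb, the chains of the GM-CSF receptor, had log2 ratios of 0.79 and 0.33 and of 0.85 and 0.49. Csf3r, the receptor of G-CSF, was at 27.3 against 25.8 CPM and 24.6 against 27 CPM. Kit, the stem cell factor receptor on which the cells were sorted, was lower, at 87.9 against 149 CPM and 42.0 against 76.9 CPM.

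Among 23 tested myeloid transcription factors, Zeb2 and Irf8 were 1.5-fold higher in both libraries and Gata2 and Nr4a1 1.5-fold lower (1.24% and 5.15% of all tested genes), of which Irf8 alone stayed past 1.5-fold among nuclei with at least 2000 UMIs. Zeb2, a repressor with roles in monocyte and dendritic cell fate, was at 1150 CPM in members against 664 CPM in library 1 and 606 against 372 CPM in library 2. Irf8 was at 243 CPM (444 UMIs) against 117 CPM and 117 CPM (147 UMIs) against 74.2 CPM. Gata2, a factor of stem, mast and basophil cells, was at 8.19 against 38.3 CPM and 7.14 against 18.0 CPM. Klf4, a factor of monocytes, went opposite ways in the libraries, with log2 ratios of 0.74 and -0.41. Cebpa had only 14 and 1 member UMIs, so its ratios rest on few molecules.

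Several lists of other lineages held genes past a fold downward, which are read against the 1.93% (2-fold) and 5.15% (1.5-fold) of all tested genes that were lower in both libraries. Of 10 pro-B genes, 7 were 2-fold lower in both libraries, and their summed level was 272 CPM in members against 2018 CPM in library 1 and 95.2 against 325 CPM in library 2. Of 7 tested stem genes, 6 were 1.5-fold lower, with Mecom at 10.9 against 61.1 CPM and 9.52 against 28.7 CPM. Of 8 early progenitor genes, 5 were 1.5-fold lower, with Dach1 at 46.4 against 199 CPM and 27.8 against 87.4 CPM. Of 11 tested late neutrophil granule genes, 9 were 1.5-fold lower, with S100a8 at 42.6 against 148 CPM and 159 against 268 CPM. Many of these calls were lost among nuclei with at least 2000 UMIs, where 5 of 9 pro-B genes, 1 of 6 stem genes (Mecom), 3 of 5 early progenitor genes and 0 of 9 late neutrophil genes stayed 1.5-fold lower in both libraries. The median of the stem list was then -1.05 in library 1 and -0.28 in library 2, and that of the late neutrophil list -0.78 and 0.12. Granule protease nuclei had summed levels of 183 and 88.8 CPM for the pro-B list in library 1 and library 2. For the stem list they had 140 and 78.6 CPM against 144 and 84.1 CPM in members. For the late neutrophil list they had 201 and 625 CPM against 165 and 558 CPM. Low levels of these lists were therefore shared with granule protease nuclei and not particular to members. Markers of erythroid cells, megakaryocytes and basophils had 2, 2 and 5 tested genes, and each of these 9 was below 0 in both libraries, as were 43.1% of all tested genes. Of 4 tested genes of conventional dendritic cells 3 were 2-fold lower (H2-Ab1, H2-Aa and Cd74) and 1 was above 0 in both libraries. The summed level of that list differed less. It was at 105 CPM in members against 116 CPM in other nuclei of library 1, and at 74.6 against 86.4 CPM in library 2. Granule protease nuclei had 85.1 and 99.5 CPM. Of tested genes, 0 of 3 of plasmacytoid dendritic cells, 0 of 1 of mature B cells and 0 of 1 of NK and T cells passed 1.5-fold. Among nuclei with at least 2000 UMIs, H2-Aa and Cd74 stayed 1.5-fold lower in both libraries and H2-Ab1 did not.

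**Figure D3:**
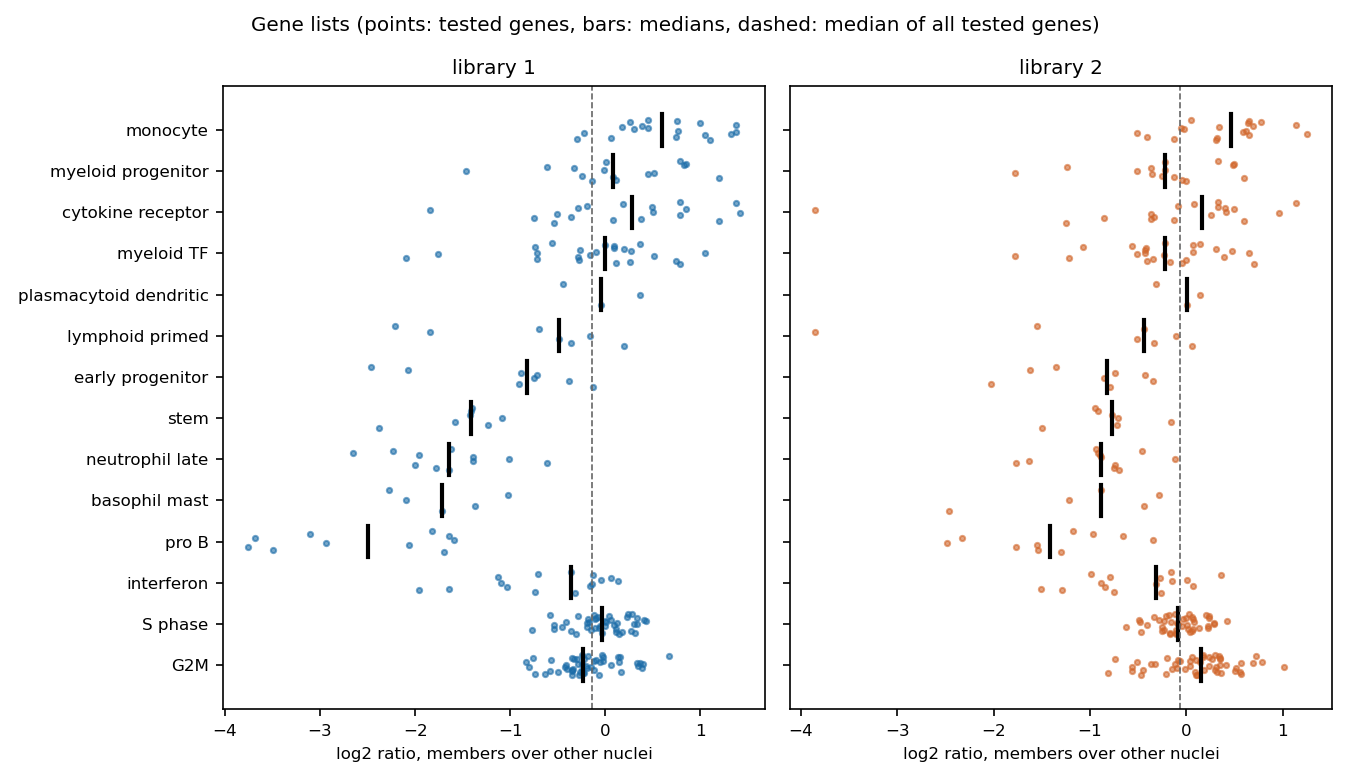
Points are tested genes of each list by log2 ratio of CPM in members over other kept nuclei, black bars are list medians and the dashed line is the median of all tested genes, for library 1 (left) and library 2 (right). The monocyte list lies to the right, with medians of 0.60 and 0.46, and the pro-B list to the left, with medians of -2.50 and -1.42.

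Partners of the proteins that the markers encode were examined gene by gene. For neuregulin signalling, Nrg2, a ligand of the same receptors, was at 218 CPM in members against 84.8 CPM in library 1 and 89.6 against 55.9 CPM in library 2, and it was the 1 gene of 5 tested that was 1.5-fold higher in both libraries (1.24% of all tested genes). The list's medians were 0.56 and -0.19. The receptors Erbb3 and Erbb4 had 4 and 3 member UMIs in library 1 and 0 and 3 in library 2, and Erbb2 and Egfr had 0 and 4 in library 1 and 0 and 1 in library 2. For AMPA receptors, the other subunits Gria1, Gria2 and Gria4 had 1 to 6 member UMIs per library, against 1994 and 978 UMIs of Gria3. For coagulation, F13b, which encodes the carrier subunit of factor XIII, had 0 UMIs in all kept nuclei. Of 17 tested SNARE genes, 0 were 1.5-fold higher in both libraries. The members thus carry RNA of Gria3, Nrg1 and F13a1 with few detected UMIs of the usual partners, at a depth where 3 UMIs in all members correspond to 2.38 CPM in library 2.

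Members were split by F13a1 and Gria3, both genes of the rule, to describe how they varied. Gria3 without F13a1 was detected in 158 members of library 1 and 68 of library 2, and F13a1 without Gria3 in 100 and 131. Of 1223 genes that reached 20 UMIs per library over these nuclei, 6 were 2-fold higher in the Gria3 members in both libraries (0.491%) and 1 was 2-fold lower (0.0818%). Gria3 and F13a1 themselves are 2 of the 7, fixed by the split. The other genes were Aff3, Runx2, Auts2, Nr3c1 and Satb1, all higher with Gria3. Over all 1223 genes the contrast was uneven, with 441 above 0 in both libraries and 216 below 0 in both.

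Aff3, a nuclear protein of lymphoid cells, was at 704 CPM in Gria3 members against 140 CPM in F13a1 members of library 1 and at 249 against 65.2 CPM in library 2. Runx2, a RUNX factor abundant in plasmacytoid dendritic cells, was at 435 CPM (368 to 509) against 77.3 CPM (44.2 to 126), and at 128 CPM (76 to 203) against 52.2 CPM (27 to 91.2). Satb1, a chromatin organiser of lymphoid progenitors, was at 182 against 82.1 CPM and 85.5 against 39.1 CPM. Intervals of the 2 kinds of member were apart in library 1 for Runx2 and Satb1 and overlapped in library 2, where 18 and 12 UMIs of Runx2 were counted. Both genes were picked by this same contrast, so their intervals describe it and give it no support.

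Further genes of that contrast were examined after their values were seen. Satb1, Mef2c and Flt3 belong to a list of 9 lymphoid-primed genes, whose other genes are not given here for this contrast. In members against other nuclei, 6 of 7 tested genes of that list were below 0 in both libraries (43.1% of all tested genes). Il7r and Dntt were 2-fold lower (1.93% of all). Mef2c, a factor of lymphoid and dendritic progenitors, was at 875 CPM (780 to 978) in Gria3 members and 435 CPM (350 to 534) in F13a1 members of library 1, and at 378 CPM (283 to 494) and 226 CPM (169 to 297) in library 2. Flt3, the receptor of dendritic and lymphoid progenitors, was at 199 CPM (155 to 251) against 38.6 CPM (16.7 to 76.1), and at 99.7 CPM (54.5 to 167) against 52.2 CPM (27 to 91.2). Irf8 was at 312 CPM (257 to 377) against 198 CPM (142 to 269), and at 178 CPM (115 to 263) against 73.9 CPM (43.1 to 118). Mpo was at 682 against 918 CPM and 898 against 952 CPM. The intervals of Mef2c and Flt3 were apart in library 1 and overlapped in library 2, and those of Irf8 overlapped in both.

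Open chromatin, which the rule did not use, was compared between members and other nuclei of each library. Members also had more ATAC counts per nucleus, as given above, and with nuclei of at least 2000 UMIs alone 27 peaks were 2-fold higher in both libraries in place of the 200 below. Of 103952 peaks with at least 200 counts in each library, 200 were at least 2-fold higher in members in both libraries (0.192%) and 770 at least 2-fold lower (0.741%). At 1.5-fold, 3924 were higher (3.77%) and 4061 lower (3.91%). Library 1 alone had 2447 peaks 2-fold higher, and 98.9% of them were above 0 in library 2, as were 45.4% of all tested peaks. Library 2 alone had 296, and 100% of them were above 0 in library 1, as were 48.6% of all. Of 3359 peaks 2-fold lower in library 1, 98.3% were below 0 in library 2 (54.6% of all tested peaks), and of 1381 lower in library 2, 97.6% were below 0 in library 1 (51.4% of all). Across peaks, which are not independent replicates, the Pearson correlation of log2 ratios between libraries was 0.70, and across genes 0.49.

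Raised and lowered peaks both lay further from promoters than all tested peaks. Within 1 kb of an annotated transcript start lay 5% of the 200 raised and 8.83% of the 770 lowered peaks, against 23.3% of all tested peaks. Of the raised peaks 48% lay in introns and 43.5% between genes, against 38.7% and 33.3%. Median distances to the nearest gene start were 25.6 kb for raised, 28.1 kb for lowered and 14.7 kb for all tested peaks. Promoters of higher genes differed by less than 1.5-fold in some cases. The promoter of Apba1 was at 51.5 CPM of all ATAC counts in peaks against 38.1 in library 1 and 51.5 against 41.7 in library 2, and that of Irf8 at 33.8 against 31.0 and 36.4 against 28.6. The promoter of Met was further apart, at 40.4 against 20.3 and 39.9 against 26 CPM. Not every promoter of a higher gene was higher. That of Pkib was lower in members in both libraries, with log2 ratios of -0.52 and -0.15. Promoters of Arhgef10l (-0.19 and 0.006) and Csf1r (-0.28 and 0.25) differed in direction between the libraries, from 19 to 23 member counts each.

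The sequences of 4 of the 10 most raised peaks and of 2 peaks in marker genes are shown, because the raised peaks differed in sequence from the rest. Each is the central 300 bases on the plus strand of GRCm38, read from the RefSeq genome, in lower case, with matches in capitals to EICE (GGAANNGAA), CEBP (TTNNGCAA) or AP-1 (TGANTCA) letters.
Intron of Frmd4a, chr2:4290532-4290831: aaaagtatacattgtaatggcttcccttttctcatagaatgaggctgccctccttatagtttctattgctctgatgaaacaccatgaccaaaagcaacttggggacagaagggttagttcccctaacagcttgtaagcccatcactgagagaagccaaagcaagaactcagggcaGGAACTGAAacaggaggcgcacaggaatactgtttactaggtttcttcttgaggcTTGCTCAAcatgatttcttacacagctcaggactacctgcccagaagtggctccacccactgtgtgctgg
Intron of 2610035D17Rik, chr11:113133396-113133695: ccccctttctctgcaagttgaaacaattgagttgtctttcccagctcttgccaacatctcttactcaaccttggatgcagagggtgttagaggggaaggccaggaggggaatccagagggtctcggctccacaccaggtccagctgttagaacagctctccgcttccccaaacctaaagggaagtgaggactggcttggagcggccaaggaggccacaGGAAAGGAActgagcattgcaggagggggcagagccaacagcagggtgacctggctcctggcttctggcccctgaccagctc
Upstream of Ramp1, chr1:91176171-91176470: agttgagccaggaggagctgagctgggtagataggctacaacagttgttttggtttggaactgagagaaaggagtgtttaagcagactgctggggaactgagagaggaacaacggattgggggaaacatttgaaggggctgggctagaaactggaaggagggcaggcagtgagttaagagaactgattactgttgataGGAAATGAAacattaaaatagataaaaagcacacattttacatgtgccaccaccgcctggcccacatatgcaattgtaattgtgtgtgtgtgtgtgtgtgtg
Intergenic, chromosome 16, chr16:31570822-31571121: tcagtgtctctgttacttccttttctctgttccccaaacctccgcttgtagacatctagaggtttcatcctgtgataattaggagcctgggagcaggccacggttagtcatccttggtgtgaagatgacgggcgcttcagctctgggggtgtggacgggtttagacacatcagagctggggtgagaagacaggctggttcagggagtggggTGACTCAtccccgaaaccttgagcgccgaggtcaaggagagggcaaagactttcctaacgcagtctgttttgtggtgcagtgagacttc
Intron of Nrg1, chr8:31977065-31977364: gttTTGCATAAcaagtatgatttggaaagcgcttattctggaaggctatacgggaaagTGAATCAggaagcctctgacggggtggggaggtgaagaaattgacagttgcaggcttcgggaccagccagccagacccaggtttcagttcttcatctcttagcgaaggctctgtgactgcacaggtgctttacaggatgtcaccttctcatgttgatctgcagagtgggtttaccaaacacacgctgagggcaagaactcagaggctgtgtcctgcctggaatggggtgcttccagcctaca
Intron of Stxbp6, chr12:44919000-44919299: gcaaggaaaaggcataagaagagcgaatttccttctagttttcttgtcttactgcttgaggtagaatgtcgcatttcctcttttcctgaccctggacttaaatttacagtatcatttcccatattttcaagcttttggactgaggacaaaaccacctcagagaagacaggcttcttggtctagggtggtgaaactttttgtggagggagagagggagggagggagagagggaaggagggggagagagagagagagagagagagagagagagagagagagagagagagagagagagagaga

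The peak in the intron of Frmd4a (chr2:4290233-4291131) was at 12.5 CPM in members against 4.12 in other nuclei of library 1 and 14.8 against 5.35 in library 2. It held an EICE and a CEBP match, shown above. The peak in the intron of 2610035D17Rik (chr11:113133102-113133990) was at 17.4 against 5.32 and 17.6 against 7.28, and the peak 3.50 kb upstream of Ramp1 (chr1:91175874-91176769) at 9.89 against 3.09 and 10.0 against 3.51, each with an EICE match. The intergenic peak on chromosome 16 (chr16:31570514-31571430) was at 19.9 against 5.28 and 17.8 against 6.84, with an AP-1 match and no EICE match. Of the 10 most raised peaks, 5 held EICE letters.

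Over all raised peaks, EICE was, of 12 motifs searched, the one furthest above its share in all tested windows. Its letters, on either strand, were in 37.5% (30.8 to 44.6%) of the 200 raised windows, in 12.3% of 103903 tested windows and in 6.49% of the 770 lowered windows. At 1.5-fold the share was 33.8% (32.3 to 35.3%) of raised and 7.46% of lowered windows. The share was 34.0% for peaks raised in library 1 and, when only nuclei with at least 2000 UMIs were compared, 34.5% of 801 raised and 6.54% of 474 lowered windows. EICE contains the ETS letters GGAA, which nearly every window holds (97.2%), and it can overlap the IRF letters GAAANNGAA. A match describes the letters of a window and not the binding of a factor.

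Other motifs stood closer to the background. CEBP letters were in 21.5% (16 to 27.8%) of the 200 raised windows against 13.9% of all, AP-1 in 19.5% (14.2 to 25.7%) against 11.1%, and IRF in 16.5% (11.6 to 22.4%) against 10.8%. PU.1 letters alone (GAGGAAGT) were in 10.5% (6.62 to 15.6%) against 9.79%, and in 14.3% of windows 1.5-fold higher. Retinoid receptor letters (RAR, AGGTCA) were in 18.0% (12.9 to 24.0%) against 16.9%.

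The 770 lowered peaks summed to 1479 CPM in members of library 1, against 6109 CPM in other nuclei. Granule protease nuclei were at 1935 CPM there and Ccr2/Fn1 nuclei at 1875 CPM. In library 2 the sums were, in the same order, 1161, 3731.5, 1973 and 1527 CPM. Low counts at these peaks were thus shared with those 2 sets and not particular to members. The lowered windows held letters of other factors more often than all windows. The E-box CAGCTG, which factors of early B and stem cells bind, was in 37.8% of the lowered windows against 20.6% of all. RUNX letters, spelled TGTGGT, were found in 43.9% of the lowered windows against 29.1% of all tested windows. GATA letters, for which AGATAA was searched, were present in 23.8% of them against 11.8%, and EBF letters (CCCNNGGGA) in 17.4% against 6.22%. Median GC content was 46.5% in raised windows and 50.3% in all, and its part in these shares was not tested. Outside promoters the EICE share was 37.4% of 190 raised windows against 13.5% of all.

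**Figure D4:**
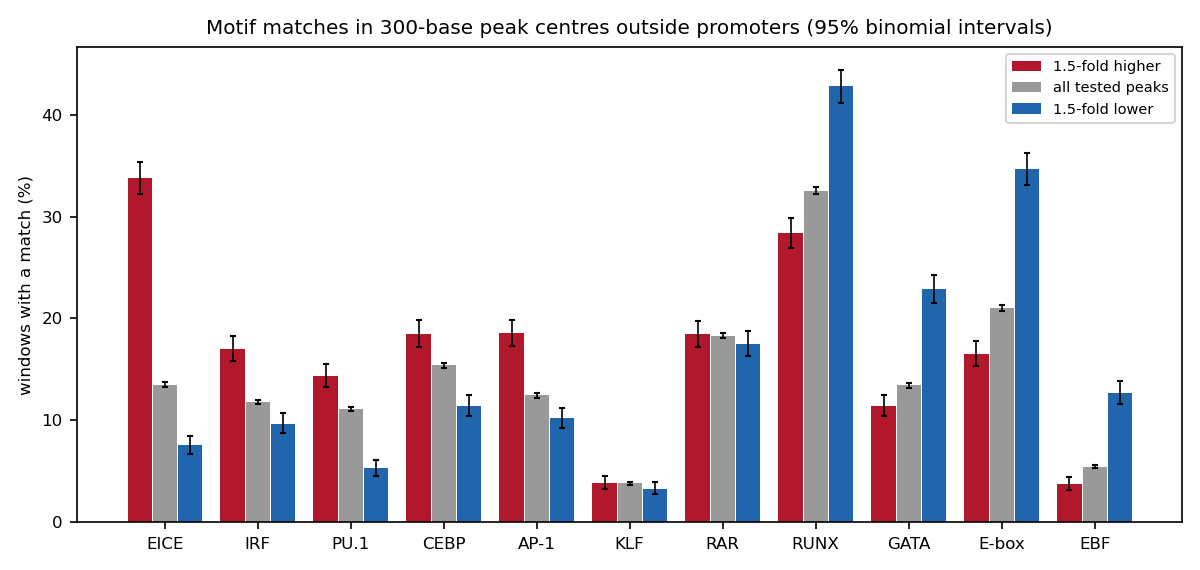
Bars give the share of 300-base peak centres outside promoters that hold each motif on either strand, for peaks 1.5-fold higher in members in both libraries (red), all tested peaks (grey) and peaks 1.5-fold lower (blue), with 95% binomial intervals. EICE stands highest above the grey bar among raised peaks, and RUNX, GATA, E-box and EBF stand above it among lowered peaks.

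Peaks at the loci of the 4 markers are read against the 3.77% of all tested peaks that were 1.5-fold higher. The peak at the start of Stxbp6 was at 25.4 CPM in members against 18.1 in library 1 and 25.9 against 20.8 in library 2, and a peak in its intron (chr12:44918784-44919517) was 2-fold higher in both libraries, at 15.7 against 6.88 and 17.8 against 8.31. The sequence of that intronic peak, shown above, held no EICE, CEBP or AP-1 letters. Nrg1 had 14 tested peaks, all inside its gene, and 4 of them were 1.5-fold higher. The highest (chr8:31976815-31977616), 907 kb from the annotated start, was at 9.89 against 3.03 and 10.6 against 5.15, with a CEBP and an AP-1 match. The nearest tested peak upstream of the Nrg1 start lay 299 kb away.

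F13a1 and Gria3 carried most of the marker RNA. Of 21 tested peaks within 100 kb of F13a1 or inside it, 3 were 1.5-fold higher, all upstream, and the highest, 93.3 kb from the start (chr13:37143104-37143902), was at 5.71 against 2.38 and 5.92 against 2.78 CPM. The peak at the F13a1 start was at 1.78 against 4.26 in library 1 and 3.30 against 2.70 in library 2, from 35 and 44 member counts, so that its direction differed between the libraries. A second promoter peak, inside the gene and 1.02 kb from the start (chr13:37048779-37049668), was higher in both. It was at 7.39 against 4.39 and 8.39 against 5.90 CPM, from 145 and 112 member counts. Gria3 had 4 tested peaks, of which 0 passed 1.5-fold, as the share over all peaks would also give for so few, with the start at 8.11 against 6.88 and 6.44 against 6.72. These highest peaks of each locus were picked after their values were seen.

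Genes with higher RNA had raised peaks more often in their surroundings. Of 1891 peaks within 50 kb of 100 genes that were 1.5-fold higher, 5.39% were 1.5-fold higher, against 3.08% around all tested genes, and 2.22% were lower, against 3% around all tested genes. Around 430 genes that were 1.5-fold lower, 2.65% of peaks were higher and 6.17% lower. Peaks near 2 genes are counted for both. Of the 200 raised peaks, 5 had a listed gene as the nearest, and 2 of these 5 held EICE letters, those near Cybb and Cst3, while those near Stxbp6, Ect2 and Pparg held none. They included 1 in the intron of Cybb, a subunit of the phagocyte oxidase (4.74 against 1.38 CPM in library 1 and 5.47 against 2.05 in library 2), and 1 that lay 13.4 kb upstream of Cst3, cystatin C, a gene of dendritic cells and monocytes (10.3 against 3.87 and 10.9 against 4.92). The peak near Ect2 was at 19.0 against 7.27 and 17.2 against 7.69, and that near Pparg at 5.45 against 1.40 and 5.17 against 2.01. The share of all tested peaks with a listed nearest gene is not given here, so the 5 peaks are not read as a link to a lineage.

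Accessibility of the raised peaks was higher with more marker UMIs, below the threshold as well as above it, up to 4 or 5 UMIs in library 2. To keep selection apart, peaks raised in library 2 were summed in library 1 and the reverse. In library 1, the 296 peaks were at 596 CPM in nuclei with 0 marker UMIs, at 1271 with 1, at 1981 with 2, at 2321 with 3, at 2506 with 4 or 5 and at 2840 with 6 or more. In library 2, the 2447 peaks were at 9071, 14786, 18663, 20377, 21107 and 21106. Nuclei with 2 marker UMIs, just outside the rule, were thus nearer to members with 3 than to nuclei with 0.

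Nuclei that the caps excluded were open at the same peaks. With 3 or more marker UMIs and a cap exceeded, the 296 peaks were at 2126 CPM in library 1 and the 2447 peaks at 18365 in library 2. Ccr2/Fn1 nuclei were at 2488 (2365 to 2616) in library 1, where members were at 2551 (2520 to 2583). In library 2 they were at 19656 (19112 to 20211) and members at 20744 (20635 to 20853). Only 55 and 37 nuclei were Ccr2/Fn1 nuclei, and the intervals leave out the spread between nuclei. The peaks were also chosen as higher in members, so these gaps are not read as differences. Granule protease nuclei were lower, at 1418 and 12565, and stem-marker nuclei lowest, at 224 and 4168. Both kinds of member from the split above were open at these peaks, with F13a1 members at 2502 and 21447 and Gria3 members at 2252 and 19040.

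Neighbours were also found from open chromatin alone. Each nucleus was compared with its 30 nearest nuclei of the same library in a reduced space of ATAC counts. Around members, 42.3% of neighbours were members in library 1, where members were 14.1% of nuclei, and 23.3% in library 2, where they were 8.24%. Around nuclei with enough marker UMIs but over a cap, the share was 34.7% and 17.6%, around Ccr2/Fn1 nuclei 31.5% and 15.3%, around granule protease nuclei 19.2% and 7.53%, and around pro-B marker nuclei 0.720% and 0.211%. In library 1, 39.4% of members had 15 or more members among their 30 neighbours, and in library 2 0.786% had. Members thus lay together in open chromatin but mixed with other nuclei.

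**Figure D5:**
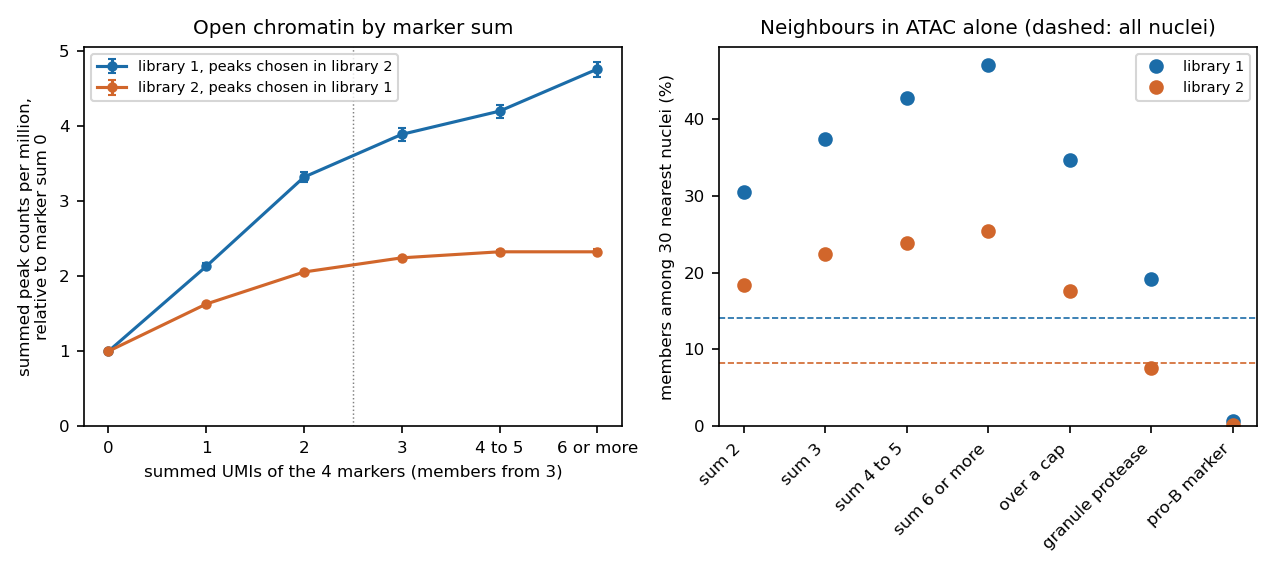
Left, summed ATAC CPM of raised peaks, chosen in the other library, by summed UMIs of the 4 markers in nuclei that meet both caps, relative to nuclei with 0 marker UMIs, with 95% intervals and a dotted line at the threshold. Right, the mean share of members among the 30 nearest nuclei in ATAC for each set, with dashed lines at the share of members among all nuclei, 14.1% in library 1 and 8.24% in library 2; members lie above and pro-B marker nuclei near 0.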

How the data were processed

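Nuclei were measured by single-nucleus multiome sequencing in 4 samples, the RNA and the ATAC libraries of Lig and of Ctrl. Per the file headers and the submitters' processing notes, the authors made the deposited matrix with Cell Ranger ARC 2.0.0 on GRCm38 (mm10) and used Seurat 4.0.3 and Signac 1.3.0. Its values are raw counts without normalization (18961 barcodes, 32272 genes with UMIs, 174339 peaks with ATAC counts). It held no mitochondrial rows. Of the gene IDs, 99.6% matched the annotation used for positions.

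Members and other kept nuclei were summed within each barcode suffix, divided by all UMIs or all ATAC counts in peaks, and compared as log2 ratios with a pseudocount of 1 CPM (Python 3.11.15, numpy 2.4.6, pandas 2.3.3, scipy 1.17.1). Genes needed 50 UMIs and peaks 200 counts in each library. The script that makes the fold calls was checked on simulated counts, with changes larger than 2-fold in genes of high counts. The check does not cover calls near 2-fold at few UMIs. Shares carry Clopper-Pearson and levels exact Poisson intervals, for ATAC on halved counts, since both ends of a fragment are counted. With 1 sample per group and no map from suffix to sample, no test was run and no group comparison was made. Neighbours came from components 2 to 30 of a latent semantic indexing of ATAC (scikit-learn 1.9.0). Named genes were those of the rule, up to 20 of the highest with at least 10 member UMIs per library and the 10 lowest by mean ratio past 2-fold in both libraries, (15 and 10 genes), of each list those with the most member UMIs or past the fold, the 10 peaks of largest ratio and the peaks nearest the marker starts. Genes under the UMI minimum were left out of list counts, and some named genes are not reported here. Members and lists were chosen with earlier results of these data known. Doublets: Scrublet (scanpy 1.11.5) marked 3 of 13619 nuclei, 0.022%, so its calls were not used to remove doublets. Whether it missed doublets was not tested. The 52 and 56 members in the top 8% of its scores were 6.26% and 8.81% of members, against 7.29% and 7.81% of other nuclei. Alternatives changed the filters, the rule, the scaling, the pseudocount and the minimum counts.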

Additional observations from a re-analysis of the deposited data

How the results depend on the processing

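Shares of members moved with the rule. In library 1 and library 2 they were 17.87% and 13.43% with at least 500 genes per nucleus, 21.76% and 16.45% at a marker sum of 2, 9.433% and 3.954% at 4, 6.588% and 1.841% at 5, 5.605% and 3.28% with a protease sum of at most 2 and no Ccr2 or Fn1 UMI, 7.485% and 2.58% without F13a1, 12.72% and 7.039% without Nrg1, 6.808% and 3.63% without Gria3, and 24.74% and 13.91% in nuclei with at least 2000 UMIs. With the limits on halved ATAC counts the share was 15.64% in library 1. Members were a larger share of library 1 than of library 2 in each alternative for which both shares are given here.

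Counts past 2-fold in both libraries moved with depth, minimum and fold. With at least 500 genes there were 77 lowered genes and 123 raised peaks, and with halved ATAC limits 121 raised peaks. At a marker sum of 5 there were 33 raised genes and 374 raised peaks. Among nuclei with at least 2000 UMIs there were 9 raised genes, 29 lowered genes and 27 raised peaks. A pseudocount of 10 CPM left 7 raised and 25 lowered genes, a minimum of 500 UMIs 4 and 17 and a minimum of 1 UMI 35 and 313. A minimum of 1000 counts left 15 raised peaks. At a fold of 1.5, added after seeing the data, there were 104 raised and 432 lowered genes and 3924 raised peaks. Raised genes were 10.5% of the genes called, 21.9% with a pseudocount of 10 CPM and 23.7% in nuclei with at least 2000 UMIs. The cause of these shifts was not tested. The 15 highest genes, the 10 lowest genes and the 10 peaks of largest ratio, 35 in all, were followed by their mean log2 ratio. Of 600 such values, 526 stayed within the counting interval of the main value, 74 moved and 0 turned direction. A changed minimum (500 UMIs, 1 UMI or 1000 counts) leaves a ratio as it was, so those values stayed by construction. All 35 had also been picked for passing 2-fold in both libraries of the same nuclei. The tally is therefore a description and no test of the ratios. Rule genes and other list genes were not in this count, and some turned in a library. Fn1 in library 2 was at -0.50, and at 0.03 among nuclei with at least 2000 UMIs. No paired analysis was possible because each group held 1 sample and no test was run. Depth limits what can be read for Stxbp6, Cebpa, the Ccr2/Fn1 nuclei and single peaks.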

Other observations

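Of 43 S phase genes, 0 passed 1.5-fold in either direction, against 1.24% higher and 5.15% lower of all tested genes, with median log2 ratios of -0.04 in library 1 and -0.08 in library 2. Of 50 tested G2/M genes, 1 was 1.5-fold higher in both libraries, Cdc25c, a phosphatase that activates the mitotic kinase, with 21 and 11 member UMIs. The median of that list was -0.23 in library 1 and 0.16 in library 2, so its direction differed between the libraries. Mki67, a proliferation marker, was at 253 against 337 CPM in library 1 and at 212 against 166 CPM in library 2.

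Of 15 tested interferon response genes, 7 were 1.5-fold lower in members in both libraries, against 5.15% of all tested genes, and 0 were higher, with medians of -0.36 and -0.31. Ddx58, the RNA sensor RIG-I, was at 2.18 against 11.3 CPM and 1.59 against 5.32 CPM, from 4 and 2 member UMIs. Of 76 tested ribosomal protein genes, 75 were below 0 in both libraries, against 43.1% of all tested genes, with medians of -0.33 and -0.23, and 0 passed 1.5-fold. In nuclei with at least 2000 UMIs the medians of the ribosomal protein genes were -0.20 and -0.09 and those of the interferon list -0.23 and -0.14, against -0.13 and -0.04 for all tested genes, and 2 of the 7 interferon genes stayed 1.5-fold lower (Samd9l and Herc6).

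At 1000 UMIs per nucleus, members had a median of 391 detected genes against 423 in other nuclei of library 1, and 275 against 280 in library 2.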
